A study of Mus musculus with 4 samples.

Results

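The late steps of cholesterol synthesis, from squalene to the sterol end product, were examined through 9 genes, *Sqle*, *Lss*, *Cyp51*, *Tm7sf2*, *Sc4mol*, *Nsdhl*, *Hsd17b7*, *Ebp* and *Dhcr7*. They were taken by name, with no threshold on a measured value, from the 36161 gene names on the array, and are carried by 12 of its 55681 non-control probes. Whole liver RNA of microsomic mice (M) was set against that of control mice (C) within each sex. There is 1 array for the microsomic females (MF), 1 for the microsomic males (MM), and likewise 1 for the females (CF) and 1 for the males (CM) of the control group. All groups are labelled C57BL/6J and embryonic day 20, while the methods of the study name newborn C57BL/6 N mice. Microsomia is a low weight for the sex within a colony of a single genotype, and it was not induced by a gene defect or a treatment. Controls were mice of ordinary weight from the same litters. The study describes 3 independent experiments per group, while 1 array per group was at hand here. How the arrays relate to those experiments, and whether an array holds the RNA of 1 animal or of a pool, is not stated with the labels. The differences between a pair of arrays therefore carry no replicate error and no p-value.

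Cholesterol is built from acetyl-CoA in a chain of reactions that first makes mevalonate, then isoprenoids and squalene. Squalene is oxidised and folded into lanosterol, and enzymes of the endoplasmic reticulum then remove methyl groups, reduce and move double bonds, and so turn lanosterol into cholesterol. Liver is a main site of this synthesis, and the transcription factor SREBP2 is known to switch on genes of the whole chain when the sterol content of the endoplasmic reticulum is low.

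The main pattern was a higher level in the M than in the C livers for most of these genes, largest on average for *Cyp51*, *Lss*, *Sc4mol* and *Sqle*. *Cyp51*, the lanosterol demethylase, was higher by 4.1-fold in the MF and by 8.0-fold in the MM array, each against the control of its sex. *Lss*, *Sc4mol* and *Sqle* were 2.94-fold to 6.35-fold higher in both sexes. *Ebp*, the sterol isomerase, had differences of -0.49 and -0.31 (log2), and *Tm7sf2*, a sterol reductase, was higher in MF and lower in MM. None of the 9 passed the test that the 4 arrays allow (0 genes with a limma adjusted p under 0.05, and 6 genes with an unadjusted p under 0.05).

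The probes are 60 bases long. For *Tm7sf2*, *Nsdhl* and *Hsd17b7*, each with 2 probes, the sequences matter because the probes of a gene gave different values. One probe of each pair is free of stop codons in 2 of the 3 reading frames and is shown whole. Of the second probe, and of the single probes of the genes with the largest differences, the first 30 bases are shown. All are in lower case, 5′ to 3′, with mm9 positions from the array annotation, and the exon or UTR under a probe was not looked up here.
*Tm7sf2*, probe A_55_P2171406, chr19:6063541-6063600, minus strand: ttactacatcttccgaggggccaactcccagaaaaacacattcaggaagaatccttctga
*Tm7sf2*, probe A_52_P35064, chr19:6062882-6062941, minus strand: cttaccgaatcataccctatgtctactgaa
*Nsdhl*, probe A_66_P137462, chrX:70202803-70202862, plus strand: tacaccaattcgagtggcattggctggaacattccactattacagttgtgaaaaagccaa
*Nsdhl*, probe A_55_P1976395, chrX:70203793-70203852, plus strand: cttcttcatcactgttcaacagtaagatga
*Hsd17b7*, probe A_55_P1997936, chr1:171883182-171883241, minus strand: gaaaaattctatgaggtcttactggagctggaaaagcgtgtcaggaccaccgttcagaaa
*Hsd17b7*, probe A_52_P566605, chr1:171880203-171880262, minus strand: tcagtcctcaataaggtcttcgatagttat
*Cyp51*, probe A_52_P164161, chr5:4081471-4081530, minus strand: aggttccttttagtattatctttggttatt
*Lss*, probe A_51_P296487, chr10:76015992-76016051, plus strand: cgcttaaagttcttggactagcttcagtga
*Sc4mol*, probe A_51_P209372, chr8:67196982-67197041, minus strand: aaatgtgatttttgtccgatccttctggtt

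A level is given here as the log2 of the background-subtracted signal minus the 75th percentile of the array, so that 0 is the signal at that percentile. Levels are compared between arrays for the same probe and never between probes. All 12 probes were well above background on all 4 arrays, none was saturated, and none carried an outlier flag. Each was printed at 1 spot. Probes printed at 10 spots had a pooled SD between spots of 0.44 (log2), which corresponds to an SD of 0.62 for a difference of 2 single spots. This is the only error that can be measured within an array, and it leaves out the spread between animals.

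Of all spots, 63.7% on MF and 65.3% on MM were well above background, compared with 57.7% on CF and 56.1% on CM. The signal set to 0 by the scaling was 892.8 (MF) and 925.0 (MM), against 675.9 (CF) and 627.6 (CM). The SD between spots was 0.415 (MF) and 0.358 (MM), against 0.462 (CF) and 0.507 (CM). Both M arrays were therefore brighter before scaling, and less noisy, than both C arrays. The source of this split was not tested. The Y-linked genes *Ddx3y*, *Eif2s3y* and *Uty* were well above background on the male arrays alone and *Xist* on the female arrays alone, as labelled, whereas *Kdm5d* was not well above background on any array. All 6 hepatocyte markers were well above background on all 4 arrays. Single arrays also held markers of other organs. The summed linear level of 5 intestine markers was 79.4 on MF and 32.2 on MM, against 8.42 on CF and 7.28 on CM. Without *Fabp2*, which made up most of each sum, it was 17.5 on MF and 0.699 on MM, compared with 1.42 on CF and 1.25 on CM, so that MM was then below both control arrays. The sum of 5 heart markers was 83.5 on CF against 2.04 on MF, 2.34 on MM and 4.67 on CM. All 4 arrays share a slide on which M and C occupy different columns, so that column and group cannot be told apart.

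Squalene epoxidase, *Sqle*, adds the oxygen that allows squalene to be cyclised and is a rate-limiting step of the late pathway. Its level was 4.41 on MF and 4.86 on MM, compared with 2.86 on CF and 3.12 on CM (probe A_55_P1975185, chr15:59162688-59162747, mm9). Both M arrays lay above both C arrays, the lower M array by 1.29. The difference was 1.55 in females (2.94-fold) and 1.73 in males (3.33-fold).

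Lanosterol synthase, *Lss*, folds the epoxide into lanosterol, the first sterol of the chain. Its level was 3.07 and 1.62 on the MF and MM arrays, against 0.90 and -0.64 on CF and CM. The males were below the females in both groups, by 1.46 in M and 1.54 in C, so that the lower M array stood only 0.71 above the higher C array. Within each sex the difference was nearly the same, 2.17 in females (4.5-fold) and 2.26 in males (4.78-fold).

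*Cyp51* encodes the cytochrome P450 that removes the first methyl group of lanosterol. Its level was 1.26 on MF and 1.94 on MM, compared with -0.77 on CF and -1.06 on CM. The groups were further apart than for the other members, with the lower M array 2.03 above the higher C array. The difference of 3.0 in males was at percentile 99.2 of all genes compared there, and that of 2.03 in females at percentile 96.4.

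*Tm7sf2* encodes the sterol reductase that acts on the product of Cyp51. On its brighter probe, A_52_P35064, the level was 5.95 and 3.68 on the MF and MM arrays, against 4.95 and 4.51 on CF and CM. The C arrays lay between the M arrays. The MF array was 2.01-fold above CF, whereas the MM array was 1.78-fold below CM, and the 2 differences were 1.84 apart (log2). The probe A_55_P2171406 gave 0.31 in females, under the SD of a difference of 2 spots, and -0.79 in males, so that the lower level in MM was seen by both probes and the 1.5-fold higher level in MF by 1 of them. That probe in turn gave a female difference of 0.475 with quantile normalization and 0.33 with normexp correction before it, both short of 1.5-fold and under the SD of a difference of 2 spots.

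Methylsterol monooxygenase, listed on the array as *Sc4mol* and now named *Msmo1*, starts the removal of the remaining pair of methyl groups. Its level was 4.81 on MF and 4.45 on MM, compared with 2.14 on CF and 2.84 on CM. Both M arrays were above both C arrays, the lower M array by 1.60. The difference was 2.67 in females, or 6.35-fold, and 1.60 in males, or 3.04-fold.

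*Nsdhl*, a sterol dehydrogenase, takes off the carboxyl group that *Sc4mol* leaves. Its level on probe A_66_P137462 was 2.95 and 1.73 on the MF and MM arrays, against 1.28 and 1.21 on CF and CM. On this probe the MF array stood apart from the rest, and MM exceeded the higher C array by 0.45. The differences were 1.67 in females and 0.52 in males, the latter short of 1.5-fold. On the dimmer probe, A_55_P1976395, they were 1.02 and 0.82, both past 1.5-fold, and both M arrays were again above both C arrays. There MM, at -0.66, was the highest array, and MF was at -1.08.

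*Hsd17b7* encodes the ketosteroid reductase that completes this demethylation. Its level on probe A_52_P566605 was 2.05 on MF and 2.73 on MM, compared with 2.01 on CF and 2.0 on CM. The MM array alone stood out, by 0.73 over CM, while MF and CF differed by 0.04. On probe A_55_P1997936 the differences were -0.21 in females and -0.42 in males, so the 2 probes disagreed in sign in both sexes and no direction is given for this gene.

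*Ebp*, the isomerase that moves the double bond in the second ring of the sterol, had a level of 5.30 and 5.36 on the MF and MM arrays, against 5.78 and 5.67 on CF and CM (probe A_51_P429682, chrX:7762463-7762522, mm9). Both M arrays were below both C arrays, by 0.31 at least, but neither difference reached 1.5-fold and both were under the SD of a difference of 2 spots. The female difference was -1.04 with quantile normalization and -0.87 with normexp correction before it, both past 1.5-fold lower, and with the deposited values left unscaled the male difference turned to 0.25.

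*Dhcr7* encodes the reductase that makes cholesterol from its last precursor in one branch of the pathway. Its level was 2.27 on MF and 0.65 on MM, compared with 0.50 on CF and 0.03 on CM (probe A_55_P2022337, chr7:151033874-151033933, mm9). MF was high, while MM exceeded CF by only 0.15. The difference was 1.77 in females (3.41-fold) and 0.62 in males (1.54-fold), the latter equal to the SD of a difference of 2 spots.

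**Figure D1:**
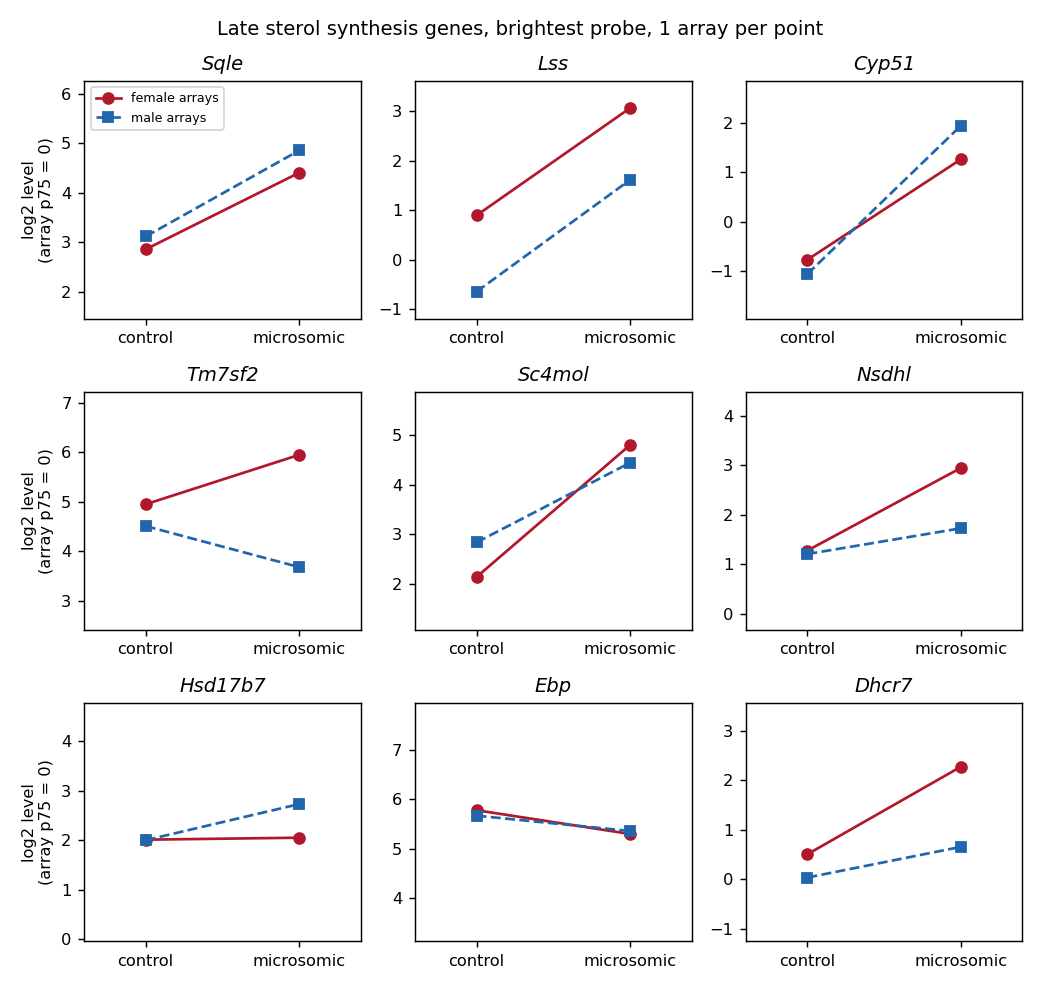
Level of the 9 genes on the 4 arrays (log2 of the signal minus the 75th percentile of the array, brightest probe of each gene). Each point is 1 array, lines join the control and microsomic array of a sex, and every panel spans the same number of log2 units but has its own origin, since levels of different probes are not compared. *Sqle*, *Lss*, *Cyp51* and *Sc4mol* slope upwards in both sexes, *Tm7sf2* slopes in opposite directions, and *Ebp* slopes slightly downwards.

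In females, 7 of the 9 genes were over 1.5-fold higher in MF and 0 were lower, with a median difference of 1.67 (log2). With quantile normalization, alone or after normexp correction, they were 6 higher, without *Tm7sf2*, and 1 lower, *Ebp*. Over all genes compared, 22.1% were past 1.5-fold higher and 21.1% past 1.5-fold lower in MF, and the median was -0.05. In males, 6 of the 9 genes were over 1.5-fold higher in MM and 1, *Tm7sf2*, was lower, with a median of 0.73. The shares over all genes were 22.2% higher and 23.1% lower, and the median was 0.02. The genes past 1.5-fold higher in both sexes were 5, *Sqle*, *Lss*, *Cyp51*, *Sc4mol* and *Dhcr7*, against 4.07% of all genes compared. With the GC trend of the probes removed, *Dhcr7* was at 0.47 in males and no longer among them. In 7 of the 9 both M arrays lay above both C arrays, which held for 11.6% of the genes that were well above background on every array. *Ebp* had both M arrays below both C arrays, as did 16.5% of those genes. *Hsd17b7* is among the 7 by a margin of 0.04 and among the 6 of the males, in each case on a probe that its second probe contradicts, and *Dhcr7* by 0.15.

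**Figure D2:**
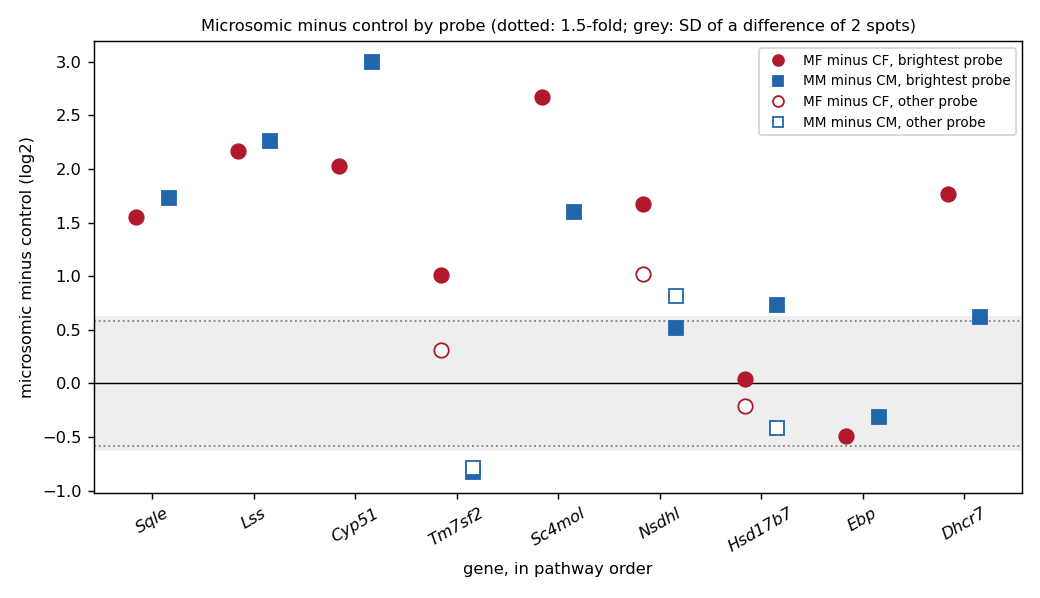
Difference between microsomic and control array (log2) for every probe of the 9 genes, in pathway order. Circles are females and squares males, filled for the brightest probe of a gene and open for the second probe. Dotted lines mark 1.5-fold, and the grey band is the SD of a difference of 2 spots, 0.62. All 8 values of *Sqle*, *Lss*, *Cyp51* and *Sc4mol* lie at 1.55 or above.

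**Figure D3:**
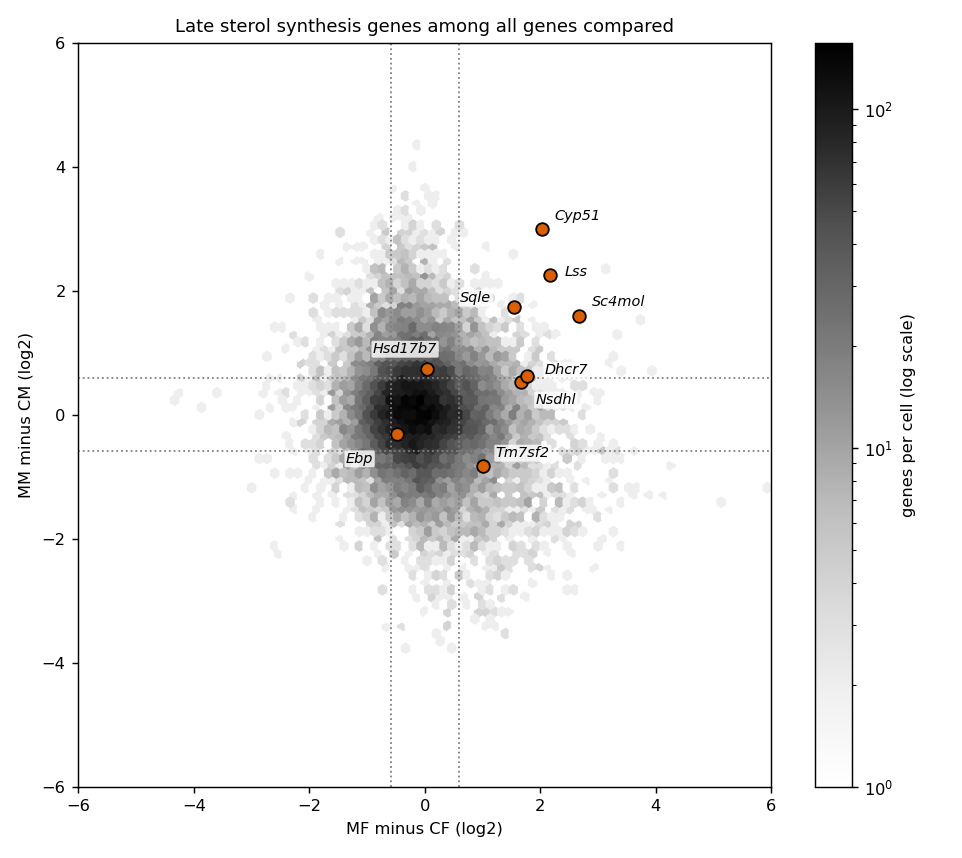
Difference in females (x axis) against difference in males (y axis), both log2, for 23329 genes with a value in both sexes. Grey cells count genes on a log scale, 39 genes lie beyond the axis limit of 6, dotted lines mark 1.5-fold, and the 9 genes are the orange points. *Cyp51*, *Lss*, *Sc4mol* and *Sqle* lie at the upper right edge of the cloud, *Tm7sf2* lies in its lower right part, and *Ebp* and *Hsd17b7* lie within its dense part.

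The sexes were also compared within each group. Between the control arrays, 2 of the 9 genes, *Lss* and *Sc4mol*, were over 1.5-fold apart on the brightest probe, and 49.3% of all genes were. The second probes of *Tm7sf2*, *Nsdhl* and *Hsd17b7* were also over 1.5-fold apart there, at -0.85, 0.63 and 1.48 (CM minus CF, log2), so this count depends on the probe. Between the M arrays 6 of the 9 genes were over 1.5-fold apart on the brightest probe, against 50.5% of all genes. On these probes *Tm7sf2*, *Dhcr7*, *Lss* and *Nsdhl* were lower in MM than in MF, by 2.27, 1.62, 1.46 and 1.22 (log2), and *Cyp51* and *Hsd17b7* were higher, by 0.68 and 0.67. The second probes of *Tm7sf2* and *Hsd17b7* kept the sign, at -1.95 and 1.28 (MM minus MF). That of *Nsdhl* gave 0.42, the opposite sign, so no direction is given for *Nsdhl* between the M arrays. Whether the M minus C difference itself differed between the sexes cannot be tested with 1 array per group.

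A limma model with group and sex was fitted to the 4 arrays for the 19332 genes that were well above background on each of them. It leaves 1 residual degree of freedom and tests a difference common to both sexes. Its SE and p rest on how far the M minus C differences of the sexes disagree, moderated over all genes. They do not measure the spread between animals of a group. After Benjamini-Hochberg adjustment no gene on the array passed 0.05 (0 genes, 0%), and 0 of the 9 did. At an unadjusted p under 0.05 there were 856 genes, and 1.88% of all genes tested had such a p and a higher level in M, as did 6 of the 9. Ordered by p, *Cyp51* was at place 13 among the genes tested, with an estimate of 2.52 ± 0.45 (SE) and a limma adjusted p of 0.958. *Lss* was at place 16 with 2.21 ± 0.41 and a limma adjusted p of 0.975. *Sc4mol* was at place 24 with 2.14 ± 0.46 and *Sqle* at place 77 with 1.64 ± 0.41. *Dhcr7* and *Nsdhl*, with estimates of 1.2 ± 0.46 and 1.1 ± 0.46, were the other members with an unadjusted p under 0.05. *Tm7sf2*, *Hsd17b7* and *Ebp* were at 0.09, 0.38 and -0.4. The study called a gene at a p under 0.01 and a fold above 1.5, in pairwise comparisons such as M against C within a sex. Here the same limits were put on the unadjusted p and the estimate of the limma fit common to both sexes. This is a different comparison from those of the study. *Cyp51*, *Lss*, *Sc4mol* and *Sqle* passed it, 4 of the 9, against 0.848% of all genes tested.

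The steps before squalene were read from 9 genes of the mevalonate pathway, of which 8 had a probe without an outlier flag (*Idi1* had none). All 8 were over 1.5-fold higher in M in both sexes, against 4.07% of all genes compared, with medians of 2.03 in females and 1.11 in males. In males *Fdft1*, at 0.60, was under the SD of a difference of 2 spots, 0.62. Genes of this and the following lists were read from their brightest probe alone, and the alternatives were not run for them. Beside their counts, the shares over all genes were 22.1% higher and 21.1% lower in MF, and 22.2% and 23.1% in MM. *Hmgcs1*, the synthase at the head of the pathway, differed by 2.03 in females and 1.4 in males. The highest mean was that of *Pmvk*, the phosphomevalonate kinase, at 3.44 in females and 0.83 in males, and the lowest that of *Acat2*, which joins the first acetyl groups, at 1.15 and 0.77.

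Among late enzymes outside the 9, *Sc5d*, the sterol desaturase, was 1.55 higher in MF and 1.04 higher in MM, and *Lbr*, a nuclear envelope protein with the same reductase activity as Tm7sf2, differed by -0.15 and -0.26. Of 8 genes of SREBP2 control and sterol uptake, 6 were over 1.5-fold higher and 1 lower in MF, and 5 were higher and 0 lower in MM. *Srebf2*, which encodes SREBP2, was 0.76 and 0.65 higher. *Insig1*, a retention protein, was 3.34 higher in MF and 0.89 in MM. The lowest was *Insig2*, at -2.26 in females and 0.12 in males.

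Genes that use or export cholesterol gave mixed values. Of 9, 2 were over 1.5-fold higher and 4 lower in MF, and 1 higher and 0 lower in MM, with medians of -0.43 and 0.15. The exporter gene *Abcg5* had the lowest mean, at -2.11 and 0.03, and *Abca1*, which loads cholesterol onto lipoprotein, the highest, at 0.79 and 0.58. Of 7 genes of fatty acid synthesis, 7 were over 1.5-fold higher in MF, with a median of 2.46, while in MM 3 were higher and 1 lower, with a median of 0.56. *Fasn*, the fatty acid synthase, was 3.17 and 0.85 higher, and *Scd1*, which desaturates fatty acids, was 0.89 higher in MF and 2.43 lower in MM.

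**Figure D4:**
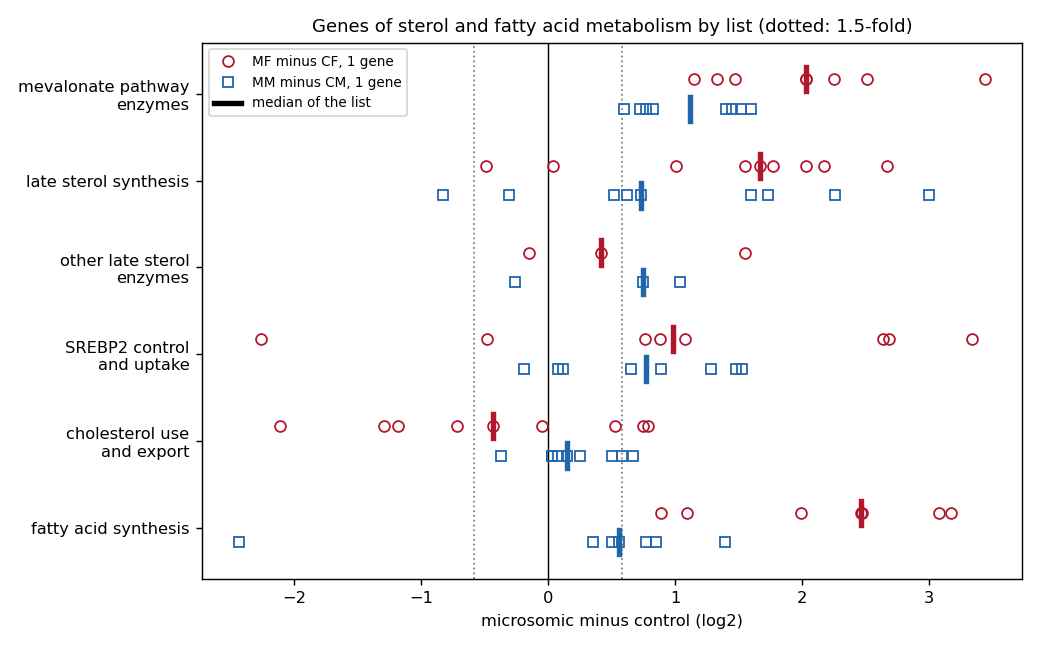
Difference between microsomic and control array (log2) for the genes of 6 lists of sterol and fatty acid metabolism. Open circles are genes in females, open squares the same genes in males, thick bars the median of a list, and dotted lines mark 1.5-fold. The mevalonate genes all lie right of 1.5-fold in both sexes, and the genes of cholesterol use and export lie on both sides of 0.

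The cell type markers differed unequally between the pairs of arrays. In females all 6 granulocyte and all 6 macrophage markers were over 1.5-fold higher in MF, with medians of 1.14 and 0.83, and the summed linear level was 1716 on MF against 691 on CF for the granulocyte list and 247 against 105 for the macrophage list. All 5 intestine markers were higher in MF (median 3.53, *Cdx1* and *Reg3b* as bounds, since they were not well above background on CF), and 4 of 5 heart markers were lower. In males the macrophage median was 0.30, with 4 of 6 markers above 0 and 1, *Clec4f*, over 1.5-fold higher, and the granulocyte median was -0.22. The intestine median, over 4 of 5 markers, was -0.02, the heart median was -1.48 with 4 of 5 markers lower in MM, and 4 of 6 hepatocyte markers were over 1.5-fold lower in MM, with a median of -0.64. The erythroid medians were -0.56 in females and -0.41 in males. For the exocrine pancreas the median was 0.38 in females, over 4 of 5 markers. In males it was -0.72, over *Cela1*, *Cpa1* and *Cel*, since *Prss2* and *Pnlip* gave no value there. *Fabp2*, an intestinal lipid binding protein, was higher in M in both sexes, by 3.15 and 2.38. The part of these cells in the sterol gene values was not tested, and in whole liver a change in the number of cells of a type cannot be told apart from a change in RNA per cell. Without CF, MF against CM gave 7 genes over 1.5-fold higher and a median of 1.74, and without MF, MM against CF gave 5 and a median of 0.71. In the last of these the difference of *Lss* was 0.71, that of *Nsdhl* 0.45 and that of *Dhcr7* 0.15, whereas *Cyp51* was 2.71, *Sc4mol* 2.31 and *Sqle* 1.99.

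Position on the array was read from the median difference of the spots within 10 rows and columns of each probe. Over the 12 probes this local median ran from -0.46 to 0.04 in females and from -0.31 to 0.21 in males. *Sqle* and *Sc4mol* lie in the last row, and with the local median replaced by the array-wide median (-0.14 in females and -0.06 in males) they kept differences of 1.59 and 2.61 in females and 1.75 and 1.69 in males. For *Ebp* the local medians were -0.46 and -0.31, and with the same replacement its differences were -0.16 and -0.06.

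**Figure D5:**
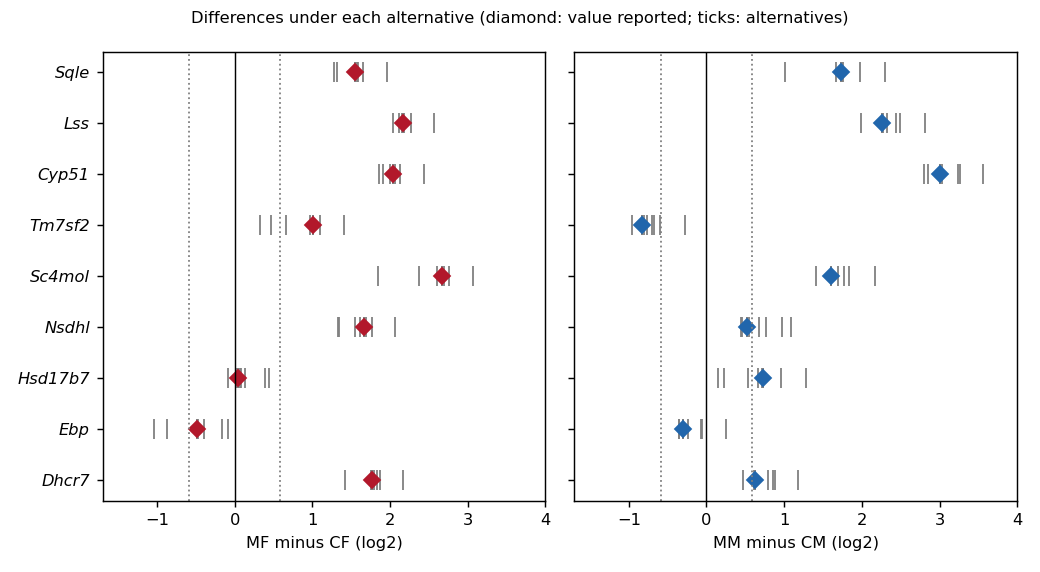
Difference between microsomic and control array (log2) for the 9 genes under each alternative processing of the same pair of arrays, females at the left and males at the right. Diamonds are the reported values, grey ticks the alternatives, and dotted lines mark 1.5-fold. The ticks of *Sqle*, *Lss*, *Cyp51* and *Sc4mol* stay right of 1.5-fold in both panels, with the lowest at 1.02 for *Sqle* in males, and those of *Ebp* and *Hsd17b7* each cross 0 in one panel.

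Promoters were read because most of these genes were higher together. RefSeq promoters of GRCm38.p6, 250 bases before to 50 after a transcription start, were found for 8 of the 9 genes (*Sc4mol* as *Msmo1*), 10 promoters in all, since *Dhcr7* has 3. *Sqle* was not matched. The letters CACNCCAC, taken as a core of the element bound by SREBP2, were in 0 of the 10 promoters on either strand and in 6.24% of all 32851 promoters, which says only that these letters are not in these windows. The letters CCAAT, the box bound by NF-Y, were in 8 of the 10 on either strand, with at least 1 such promoter for each of the 8 genes, and in 37.4% of all promoters. The letters GGGCGG, the GC box bound by Sp1, were in 9 of the 10 and in 35.7% of all promoters. These shares are over all promoters, not matched for base content or for expression in liver, and no test was run. Some of the *Dhcr7* promoters overlap, so the 10 are not separate. *Ebp* and *Tm7sf2*, which were not higher in both sexes, held the CCAAT letters as well. The 120 bases before the start are shown for *Cyp51* and *Sc4mol*, with the largest differences among the genes whose stretch holds no transcribed base of the RefSeq gene, and for *Ebp*, with capitals marking CCAAT or, on the opposite strand, ATTGG.
*Cyp51*, GRCm38.p6 chr5:4104698-4104817, minus strand: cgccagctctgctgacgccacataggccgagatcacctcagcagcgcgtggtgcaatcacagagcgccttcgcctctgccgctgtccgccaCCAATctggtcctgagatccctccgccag
*Sc4mol*, GRCm38.p6 chr8:64733579-64733698, minus strand: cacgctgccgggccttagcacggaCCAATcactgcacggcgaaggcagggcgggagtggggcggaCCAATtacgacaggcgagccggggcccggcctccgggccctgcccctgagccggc
*Ebp*, GRCm38.p6 chrX:8193513-8193632, minus strand: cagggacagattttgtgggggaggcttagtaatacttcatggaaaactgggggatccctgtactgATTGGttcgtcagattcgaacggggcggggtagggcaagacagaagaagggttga
The *Sc4mol* stretch holds the box at 2 places, and those of *Cyp51* and *Ebp* at 1.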

How the data were processed

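Liver RNA of 4 samples was measured with Cy3 on 1-colour Agilent SurePrint G3 Mouse arrays. The authors read the scans with Feature Extraction of Agilent (version 10.7.3.1, mm9 annotation). Their deposited processed signal is a background-subtracted and detrended intensity on a linear scale that was not normalized across arrays, and their value table equalled it at all 62976 spots. The software had flagged 1754 spots as outliers on some array, and these were dropped throughout. The log2 signal minus the 75th percentile of each array was averaged over the spots of a probe, and a gene was its brightest probe. Genes were compared where at least 1 array of a pair was well above background. On an array where it was not, the higher of its own signal and the lowest signal well above background was used. The difference is then a bound. Where that array had the higher value of the pair, no difference was given, but the gene stayed in the number compared. A difference over 1.5-fold was counted, with no p-value. limma 3.58.1 (R 4.3.3) was fitted to the 4 arrays with sex as a term and checked on simulated data. Alternatives were the median, quantile normalization, normexp (offset 50) with quantile normalization, no scaling, the mean over probes, filters on dim probes, spots with a flag kept, position and GC trends removed, a 2-fold threshold, a count by probes, and in limma an intensity trend, no sex term and the threshold of the methods. Comparisons across the sexes were added after the marker values were seen. The genes were taken by name with no threshold on a value, but they, the lists and the tests were chosen with earlier results of these data known. All 9 genes, all their probes, and any gene of the lists could be named, with the highest and lowest mean of a list given. Some genes of the lists are not reported here. The number of arrays limits the precision.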

Additional observations from a re-analysis of the deposited data

Results flagged for a closer look

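*Tm7sf2* differed in opposite directions in the sexes. Its difference was 1.01 (log2) for MF minus CF and -0.83 for MM minus CM on its brighter probe, with 1 array per group, and the difference between the sexes was not tested. The female difference on the same arrays was 0.475 with quantile normalization and 0.328 with normexp correction before it, both short of 1.5-fold, and the male difference was -0.953 and -0.681.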

How the results depend on the processing

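The direction of the median over the 9 genes was kept under all alternatives run, at 1.29 to 2.07 (log2) in females and 0.53 to 1.29 in males for the same pairs of arrays. The lowest male median, 0.53, came with the GC trend removed, with 4 genes over 1.5-fold higher in place of 6, as *Dhcr7* and *Hsd17b7* were then at 0.469 and 0.529. With quantile normalization, alone or after normexp, 6 genes were higher and 1 (*Ebp*) lower in females in place of 7 and 0. Leaving out MF, with MM against CF, the median in place of the female one was 0.713, and *Tm7sf2* turned to -1.262. In males the unscaled values gave 7 genes higher and 0 lower. They shift the median of all genes well above background by 0.40 in females and 0.56 in males, and centring on the median shifts it by 0.24 in males. Of the 9 genes, 1 passed the limma adjusted p of 0.05 with the unscaled values, as did 10 genes of all. The threshold of the methods, put on the limma fit common to both sexes, was passed by 4 of the 9 and by 164 genes of all. Under the other limma alternatives 0 of the 9 passed. The cause of these changes was not tested. No paired analysis was possible because the groups hold 1 array each and share a single replicate number, other than by sex, which is a term of the limma fit, and no replicate could be left out within a group.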
